A study of Mus musculus with 8 samples.

Results

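Untreated L929 cells with ectopic IRF8 (L929IRF8) were compared with untreated L929 cells, 2 arrays of each line. L929 is a long-established line of mouse fibroblasts. Every array read 25697 probes, and the comparison uses the 11354 probes (44.2%) whose mean over these 4 arrays was above 23.7 intensity units. That value is the size of the lowest deposited value and served as the bound of background. The probes stand for 7647 named genes of 16593 on the array, and 656 of them have no gene symbol. The 4 untreated arrays belong to a set of 8. The other 4 arrays hold the same lines, 2 arrays each, after 4 h with interferon beta (IFNβ) at 1000 U/ml. All cells grew in DMEM with foetal calf serum, and total RNA was hybridised to Illumina mouse bead arrays. The labels do not say how IRF8 was introduced, whether L929IRF8 is 1 clone, or whether the L929 cells carry an empty vector. The series' own description calls the 2 replicates independent without saying what separates them, so p-values measure only the spread between these arrays.

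IRF8 belongs to the interferon regulatory factors (IRFs), a family of DNA-binding proteins, and is normally made in myeloid cells, B cells and dendritic cells. It binds DNA weakly on its own and mostly acts with a partner, either an ETS factor such as PU.1 on composite ETS and IRF elements or another IRF on interferon-stimulated response elements. In myeloid progenitors it favours monocytes and dendritic cells over granulocytes, and fibroblasts normally have little of it. The question here was which genes already differ between the lines before any interferon is given.

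The mouse Irf8 gene has 1 probe on the array. It read 6.3 and -1.5 intensity units in L929IRF8 and -2.3 and 4.4 in L929, all under the bound of 23.7, and it stayed between -2.3 and 7.8 on all 8 arrays. Whether this probe lies in the introduced sequence is not known, so the values do not check the labels. Of the fibroblast markers on the array 9 of 11 were above the bound, among them Vim, Sparc and Col1a1, with summed intensities of 32951.6 and 31288.2 in L929IRF8 and 36308.2 and 32874.8 in L929, while Thy1 and Lox were under it. Of the macrophage and myeloid markers 2 of 10 were above the bound, Cd14 and Lyz2. These 2 summed to 179.1 and 123.3 in L929IRF8 and 150 and 108.4 in L929. All 10, with negative readings at 0, summed to 199.3 and 125.9 in L929IRF8 and 157.7 and 132.1 in L929. Ptprc, Itgam, Adgre1 and Spi1, which encodes PU.1, had means near or below 0. None of the 5 lymphoid and 5 epithelial markers, 1 of 5 endothelial markers (Kdr) and 2 of 5 smooth muscle markers (Acta2 and Des) were above the bound.

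No difference between untreated L929IRF8 and untreated L929 passed the test. With limma, 0 of 11354 probes had an adjusted p below 0.05, and the smallest adjusted p was 0.461. At the unadjusted level 424 probes (3.73%) had a p below 0.05, where 567.7 are expected of tests with no difference, and 279 genes (3.65%) did at their representative probe. With the replicate number as a block 988 probes did, above that number, and still 0 passed. Over all probes the median size of the log2 difference was 0.13, and the 99th percentile was 0.69. A difference of 2-fold or more was seen at 21 probes, 15 higher and 6 lower in L929IRF8. By gene, 126 of 7647 (1.65%) differed at least 1.5-fold on the log2 scale with no overlap between the arrays of the lines. In L929IRF8 59 of them were higher (0.772% of the genes) and 67 lower (0.876%). With 2 arrays against 2, an exact permutation test cannot give a two-sided p under 0.333, so each gene below is described by its array values and named as not passing. That 0.333 is also the share of genes whose arrays would be apart, in one direction or the other, under a random order of the 4 arrays. Here 2260 of 7647 genes (29.6%) were apart, so a lack of overlap alone is no sign of a difference.

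The same-numbered replicates bore each other out only in part, which is a limit. The log2 difference of L929IRF8 minus L929 was computed for replicate 1 and for replicate 2. Over the 11354 probes, the pair of differences correlated with a Pearson r of 0.165 (Spearman rho 0.133), and 6254 probes (55.1%) had the same sign under both numbers. These are values across probes of the same 4 arrays, which are not independent. Among the 2832 probes with a mean above 40 times the bound r was 0.308, and 59.5% had the same sign, against r of 0.0921 and 52.6% among the 3030 probes up to 4 times the bound. The differences were wider under replicate 1 (SD 0.354) than under replicate 2 (SD 0.239).

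Arrays with the same number also moved together, apart from the line. The deviation of replicate 1 from replicate 2 in L929IRF8 correlated with that in L929 at r of 0.441 over the probes, and over all 6 pairs of groups, IFNβ arrays included, this r was 0.441 to 0.511. Cxcl1, a chemokine that attracts neutrophils, shows the pattern: it read 5784.6 and 1016.3 in L929IRF8 and 3749.2 and 645.4 in L929, so both replicate 1 arrays were high and both replicate 2 arrays low, while the line differed by 0.62 log2 units under number 1 and 0.64 under number 2. Within a line, the difference between the replicates had an SD of 0.409 in L929IRF8 and 0.322 in L929 over the probes, beside 0.354 and 0.239 for the difference between the lines under replicates 1 and 2, which are also differences of single arrays. The closest pair of untreated arrays crossed the lines, with an r of 0.994 between the log2 values of L929IRF8 replicate 2 and L929 replicate 2, and the furthest were L929IRF8 replicate 1 and L929 replicate 2 (r of 0.980). L929IRF8 replicate 1 therefore stood somewhat apart. With 1 array left out the replicate numbers no longer match between the lines. A shift shared by same-numbered arrays then enters the difference. Some log2 differences of representative probes printed below became more than 1.5 times smaller without 1 of the untreated arrays. A value without 1 such array is then mostly given, though not for every array. It stands in the gene's paragraph or, for the 30 genes described singly, in the paragraph on leaving out arrays.

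**Figure D1:**
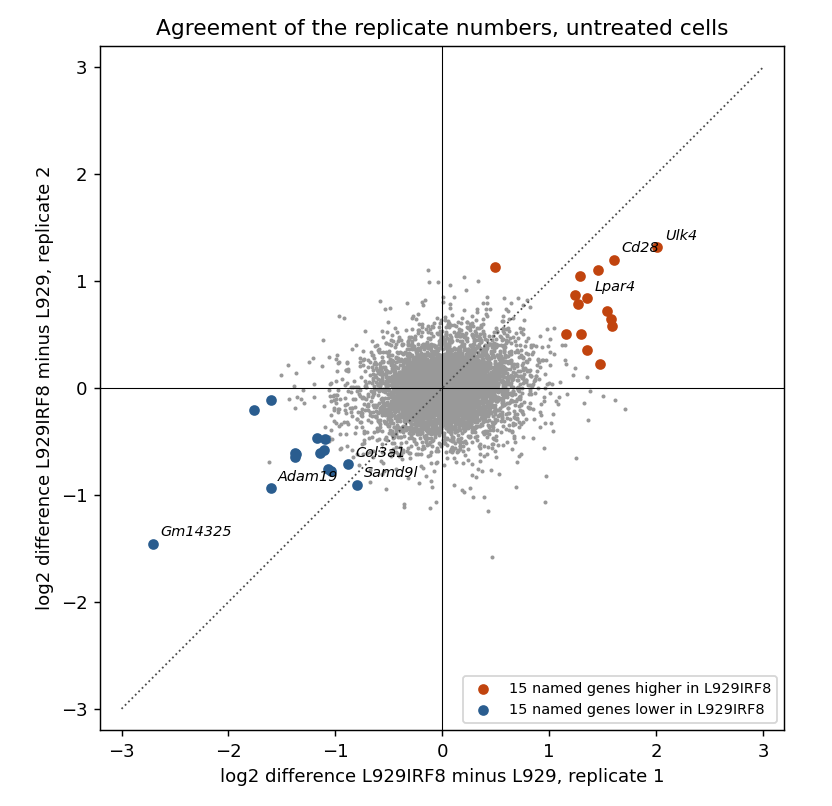
Log2 difference of L929IRF8 minus L929 in untreated cells under replicate 1 (x axis) and replicate 2 (y axis). Each grey point is 1 of 7647 genes, the coloured points are the 15 genes named as higher and the 15 named as lower in L929IRF8, and the dotted line marks equal differences. The grey cloud has little slope (r of 0.165 over all probes), and most named genes lie further out under replicate 1 than under replicate 2.

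The genes described singly are the 15 with the largest log2 differences in each direction whose arrays did not overlap and whose higher line was above the bound on both arrays. Their arrays do not overlap because the rule asks for it, so that count is no result. Log2 differences were taken after adding 16 to the intensities, which understates the change of dim genes, and each is given with its limma standard error (SE).

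The genes were grouped by known role after their values were seen. Among those that were higher in L929IRF8, 3 encode kinases or kinase-like proteins. Ulk4, a kinase-like protein of the Unc-51 family, read 308 and 198.6 in L929IRF8 and 64.3 and 70.2 in L929, a log2 difference of 1.66 ± 0.23 (SE). Its limma adjusted p was 0.461. Dipk1a, a divergent kinase of the endoplasmic reticulum, read 450.6 and 391.7 in L929IRF8 and 154 and 173.3 in L929 (1.28 ± 0.18), with the same adjusted p of 0.461. Nek6, a kinase of mitosis, read 101.9 and 66.5 in L929IRF8 and 24.6 and 34 in L929 (1.13 ± 0.20). In intensity units the gap between the L929IRF8 arrays was wider than that between the L929 arrays in all 3. Without L929IRF8 replicate 1 their log2 differences were 1.37, 1.18 and 0.87.

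Another 3 encode receptors. Cd28, a co-stimulatory receptor best known on T cells, read 347.2 and 479.6 in L929IRF8 and 103 and 199.6 in L929, a log2 difference of 1.41 ± 0.36. It has 3 probes above the bound, and the other 2 gave 1.28 and 1.10 with no overlap between the lines. In each line replicate 2 was the brighter array, and the lymphoid markers Cd3e, Cd4 and Cd8a were under the bound. Lpar4, a G protein-coupled receptor for lysophosphatidic acid, read 278.2 and 263.8 in L929IRF8 and 99.1 and 139.9 in L929 (1.10 ± 0.18). Sigirr, an inhibitory member of the interleukin 1 receptor family, read 251.7 and 150.9 in L929IRF8 and 92.9 and 101.4 in L929 (0.90 ± 0.24). Without L929IRF8 replicate 1 the log2 differences were 1.63 for Cd28, 1.06 for Lpar4 and 0.56 for Sigirr. Without L929 replicate 1 that of Cd28 was 0.98 and that of Lpar4 0.88.

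The other genes that were higher have separate roles. Cryab, a small heat shock protein, read 217.7 and 172.4 in L929IRF8 and 80.9 and 93.2 in L929 (1.03 ± 0.23). Col4a5, a chain of the type IV collagen of basement membranes, read 51.5 and 51.3 in L929IRF8 and 32 and 14.6 in L929 (0.81 ± 0.24), so its L929 arrays straddled the bound. Per3, a gene of the circadian clock, read 102.3 and 40.5 in L929IRF8, while both L929 arrays were at or under the bound. It was at least 2.72-fold higher with all arrays, and its log2 difference of 1.08 became 0.55 without L929IRF8 replicate 1. Tmem229b, a membrane protein, read 61.6 and 50.8 in L929IRF8 and 15.7 and 16.3 in L929, at least 2.36-fold higher. After IFNβ it read 304.7 and 241.4 in L929IRF8 and 397.2 and 296.1 in L929. Klhl9, an adaptor of a cullin ubiquitin ligase, had a log2 difference of 1.05 at its brighter probe and -0.26 at its second probe, so its probes disagree. Rnf214, the lysosomal enzyme gene Idua, Tmem131 and the splicing-associated Prcc completed the group at 1.11, 0.85, 0.85 and 0.83.

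Among the genes that were lower in L929IRF8, Gm14325, a predicted gene, had the largest difference of any representative probe. It read 62 and 156.2 in L929IRF8 and 493.5 and 455.9 in L929, a log2 difference of -2.08 ± 0.36 with a limma adjusted p of 0.650. Its second probe read 181 and 325.9 in L929IRF8 and 327.3 and 272.9 in L929, where the arrays overlap and the log2 difference is -0.28. After IFNβ the first probe read 260.7 and 165.8 in L929IRF8 and 178.2 and 195 in L929, so the arrays of the lines overlapped there too. Zfp457, a zinc finger protein, was also lower at -1.01 ± 0.33.

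A collagen and a protease were also in this group. Col3a1, the chain of type III collagen and a fibroblast marker, read 241.5 and 284.9 in L929IRF8 and 457.3 and 477.8 in L929, a log2 difference of -0.80 ± 0.15. A second probe gave -0.96 on the same arrays, and the value without L929IRF8 replicate 1 was -0.68. Adam19, a membrane metalloprotease, read 20.3 and 37.7 in L929IRF8 and 94.5 and 86.5 in L929 (-1.27 ± 0.28). Only 1 of its L929IRF8 arrays was above the bound.

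Ifi202b and Samd9l, both known as interferon-inducible, were among the 15 lower genes but belong to none of the gene lists used here. Ifi202b, a DNA-binding protein of the p200 family known as an antagonist of the sensor AIM2, read 768.1 and 1204.1 in L929IRF8 and 2019.6 and 1841.5 in L929, a log2 difference of -0.99 ± 0.22. A second Ifi202b probe gave -0.78. Samd9l, an interferon-inducible restriction factor that slows growth and translation, read 205.2 and 170.4 in L929IRF8 and 368.4 and 332.4 in L929 (-0.85 ± 0.20). Neither gene passed in limma (adjusted p = 0.99978 each). Without L929IRF8 replicate 1 the log2 differences were -0.67 for Ifi202b and -0.97 for Samd9l, and that of Samd9l was -0.73 without L929IRF8 replicate 2.

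The secreted prolactin relatives Prl2c3 and Prl2c4, known as proliferins, were lower as well. Prl2c3 read 54.5 and 89.4 in L929IRF8 and 165.6 and 145.6 in L929 (-0.99 ± 0.23). Prl2c4 read 58.9 and 60.1 in L929IRF8 and 149.9 and 100.1 in L929 (-0.88 ± 0.23). The genes of this family are nearly identical, so a probe of one may read another, and each count below that holds both may hold 1 signal under both names. The rest were the engulfment adaptor Gulp1 (-0.98), the nuclear import receptor Tnpo3 (-0.91), the SOCS box protein Spsb1 (-0.90), the chromatin regulator Arid5b (-0.85), the Notch effector Rbpj (-0.84), the zinc importer Slc39a1 (-0.82) and Cacybp (-0.79), which encodes a ubiquitin ligase adaptor. For Tnpo3 and Rbpj both L929IRF8 arrays were under the bound, so they were at least 2.12-fold and at least 1.60-fold lower.

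With 1 untreated array left out none of the 30 could change sign, since their arrays do not overlap by choice, but their sizes moved. Without L929IRF8 replicate 1, 9 of the 30 came to less than 1.5-fold. They were Per3, Sigirr, Idua (0.48), Tmem131 (0.30), Zfp457 (-0.50), Gulp1 (-0.23), Arid5b (-0.15), Slc39a1 (-0.42) and Cacybp (-0.57). For Gulp1, Arid5b and Tmem131 the difference rests mainly on that array. Gm14325 came to -1.51 and Adam19 to -0.99 without it. Without L929 replicate 1, Spsb1 (-0.56) and Prcc (0.58) came to less than 1.5-fold, and without L929 replicate 2 Col4a5 (0.49) did.

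**Figure D2:**
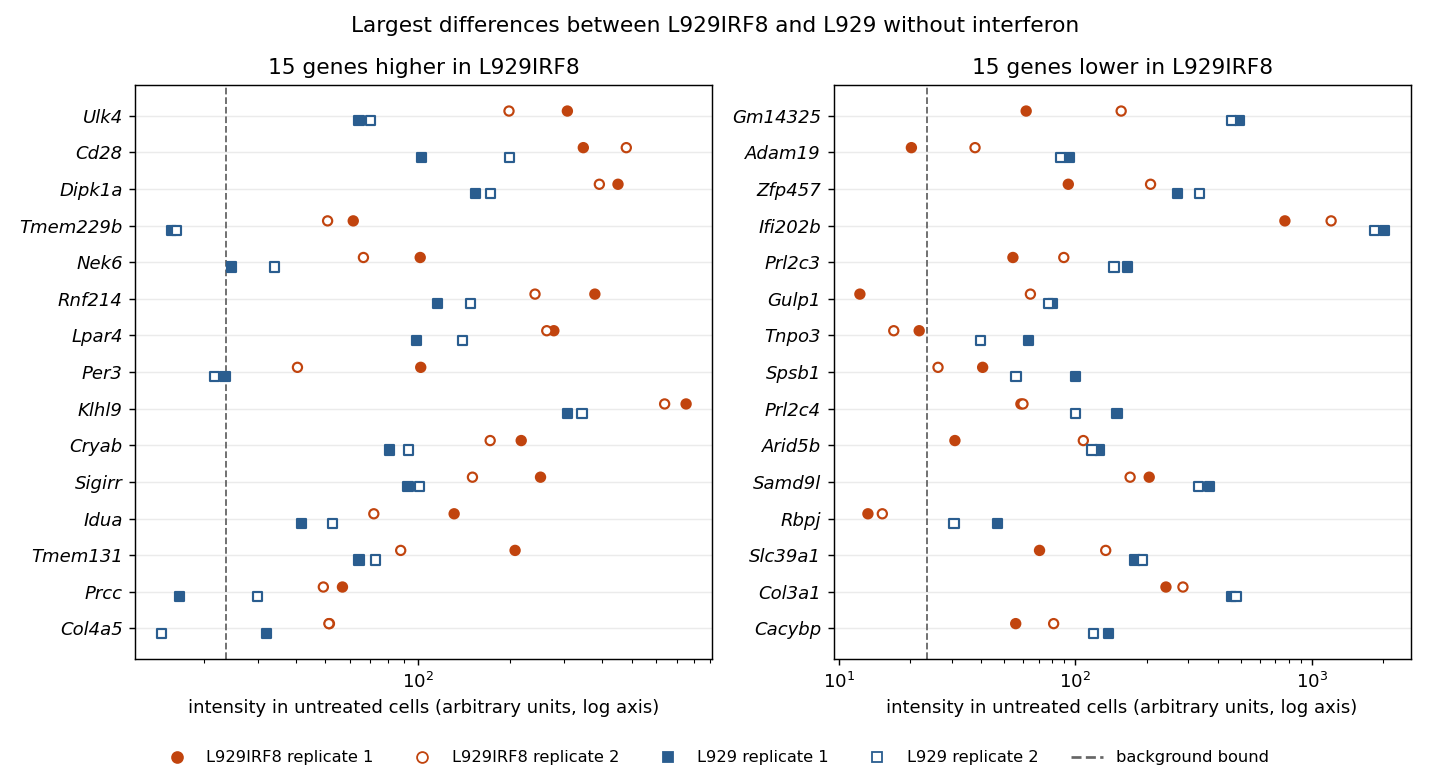
Intensities of the 30 named genes in untreated cells, on a log axis, with L929IRF8 as circles above L929 as squares; filled symbols are replicate 1 and open symbols replicate 2, and values under 1 would be drawn at 1. The dashed line is the background bound of 23.7. The lines do not overlap for any of the genes, as the choice of genes requires, and Per3, Tmem229b, Tnpo3 and Rbpj have 1 line wholly under the bound.

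A pair of dim probes for Actb, which encodes beta-actin, differed more than any of these genes; they were singled out after the values were seen. The first read 375.7 and 196.5 in L929IRF8 and 5.6 and 20.6, both under the bound, in L929, at least 11.5-fold higher with a limma adjusted p of 0.461. The second read 339.5 and 155.4 in L929IRF8 and 17.1 and 18.7, both under the bound, in L929, at least 9.69-fold higher (limma adjusted p of 0.650). The 3 bright Actb probes, which read 13279.4 to 24703.3 on the untreated arrays, gave log2 differences of 0.05, 0.00 and -0.09. After IFNβ the log2 difference at the dim probes was 0.44 each.

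Promoter windows of RefSeq (mouse build GRCm38.p6) were searched on both strands for an interferon response motif (GAAA, then any 2 bases, then GAAA) and a composite motif of ETS and IRF proteins (GGAA, then any 2 bases, then GAAA), in the 300 bases around the start site. Of the 30 named genes 25 had windows, 31 in all, and 0 of these held either motif. Over the 8104 windows of the genes used here the motifs were found in 2.88% and 2.21%, and over all 32851 windows in 3.44% and 2.72%. A lack of a match says only that these letters are not in the window. Among the other genes named here, matches were found for Irf2, for B2m, for 1 of the 2 windows of Bcl6, and, after the start site, for Ifitm3 and Psme1. The following stretches of 250 bases before the start site are shown because Bcl6 had the largest difference of the IRF8-linked genes, because Irf2 is a family member in which both motifs overlap, and because Lpar4 was higher in L929IRF8 with and without IFNβ and has no match. Capitals mark the motif.
Bcl6, chr16:23981284-23981533, minus strand: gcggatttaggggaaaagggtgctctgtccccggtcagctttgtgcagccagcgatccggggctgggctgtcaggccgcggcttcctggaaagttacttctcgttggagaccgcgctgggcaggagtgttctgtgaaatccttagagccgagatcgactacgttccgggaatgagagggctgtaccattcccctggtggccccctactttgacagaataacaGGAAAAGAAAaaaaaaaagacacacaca
Irf2, chr8:46739495-46739744, plus strand: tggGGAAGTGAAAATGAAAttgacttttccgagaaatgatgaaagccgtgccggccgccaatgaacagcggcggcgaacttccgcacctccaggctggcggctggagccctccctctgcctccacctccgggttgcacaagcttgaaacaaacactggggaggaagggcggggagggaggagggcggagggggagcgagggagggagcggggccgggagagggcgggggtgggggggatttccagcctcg
Lpar4, chrX:106920375-106920624, plus strand: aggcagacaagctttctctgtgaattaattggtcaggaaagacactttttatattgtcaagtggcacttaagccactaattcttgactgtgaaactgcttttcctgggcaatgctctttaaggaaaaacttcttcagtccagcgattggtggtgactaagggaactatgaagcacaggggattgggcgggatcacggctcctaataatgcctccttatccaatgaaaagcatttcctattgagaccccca

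By gene function, the interferon system of untreated cells was described first. Of 18 MHC class I presentation genes above the bound 0 passed, 13 had a positive log2 difference, and 7 were higher in L929IRF8 with no overlap, where 15.6% of all genes were. Their median log2 difference was 0.20 (0.22 under replicate 1 and 0.19 under replicate 2), beside 0.01 over all 7647 genes. It ranged from 0.03 to 0.33 when 1 untreated array was left out, and was 0.06 without L929IRF8 replicate 1. After IFNβ the list's median had the opposite sign, at -0.06, beside 0.002 over all genes. In untreated cells Psmb8, an inducible catalytic subunit of the immunoproteasome, read 168.8 and 115.4 in L929IRF8 and 108 and 57.5 in L929 (0.71 ± 0.37). H2-M3, a non-classical class I molecule, read 385.6 and 407.2 in L929IRF8 and 266.4 and 275.7 in L929 (0.52 ± 0.13). Psmb10, a further immunoproteasome subunit, read 779.4 and 602.1 in L929IRF8 and 530.7 and 485.2 in L929 (0.42 ± 0.20). In these 3 genes the lines did not overlap, and without L929IRF8 replicate 1 the log2 differences were 0.46, 0.56 and 0.24. That of Psmb8 was 0.33 without L929 replicate 2. The peptide transporter Tap2 (0.33) and the proteasome activator Psme1 (0.30) were also higher on both arrays, whereas the loading chaperones Tapbp (-0.39) and Pdia3 (-0.34) were lower on both, and B2m, the light chain of class I, overlapped between the lines (-0.13). Without L929 replicate 2, Tap2 was at 0.16 and Psme1 at 0.19, without L929IRF8 replicate 2 Tapbp was at -0.21 and B2m at 0.05, and without L929 replicate 1 Pdia3 was at -0.23.

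The antiviral genes did not share a direction. Of 45 interferon-stimulated antiviral genes on the array 22 were above the bound in untreated cells, 0 passed, 10 had a positive and 12 a negative difference, and the median was -0.03, although it was 0.02 under replicate 1 and 0.01 under replicate 2. With no overlap 4 were higher and 3 lower, beside 15.6% and 14% of all genes. Lgals3bp, a secreted galectin-binding glycoprotein, read 2117.9 and 2241.9 in L929IRF8 and 1251 and 1577.5 in L929 (0.63 ± 0.20). Ifitm3, a membrane protein that blocks virus entry, went the other way with 4399.2 and 3232.4 in L929IRF8 and 5665.6 and 4900.8 in L929 (-0.48 ± 0.20), or -0.26 without L929IRF8 replicate 2. Ifit2 overlapped between the lines (-0.42, or -0.12 without L929 replicate 2). Of 15 GBP and IRG GTPases only Gvin1 and Irgm1 were above the bound, both with overlapping arrays.

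IRF genes and their signalling partners were close between the lines. Of 10 genes of the IRF family list on the array 6 were above the bound, with log2 differences from -0.15 to 0.17. Their median was 0.03. The list also holds Irf2bpl (0.07, or 0.0027 without L929IRF8 replicate 2), a relative of the IRF2-binding proteins and not an IRF. Irf3, which responds to viral nucleic acid, read 1368.9 and 1399.6 in L929IRF8 and 1188.9 and 1275.8 in L929 (0.17 ± 0.13). Irf9, the DNA-binding part of the type I interferon factor ISGF3, read 137.5 and 135.7 in L929IRF8 and 121.2 and 130 in L929 (0.11 ± 0.15), or 0.06 without L929 replicate 1. The lines did not overlap for either gene, but the differences are close to their SE or below it. Irf1 read 888.7 and 730.9 in L929IRF8 and 1069.9 and 751.6 in L929 (-0.15 ± 0.20), and Irf2 was at -0.01; without L929 replicate 1 they were at 0.10 and 0.05. Among 22 interferon receptor and JAK-STAT genes 0 passed and the median was 0.04. The feedback inhibitors Cish and Socs2, which STAT5 induces, were lower on both arrays. Cish read 438.8 and 416 in L929IRF8 and 667.8 and 586.7 in L929 (-0.53 ± 0.22). Socs2 read 585.3 and 904.1 in L929IRF8 and 1000.5 and 1128.2 in L929 (-0.54 ± 0.24), which was -0.23 without L929IRF8 replicate 1.

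Genes that IRF8 is known to be linked to in myeloid cells did not share a direction. Of 21 on the array 10 were above the bound, beside 7647 of 16593 over all genes. Of the 10, 0 passed, 4 had a positive and 6 a negative difference, and the median was -0.08. That median was -0.24 under replicate 1 and 0.00 under replicate 2. Bcl6, a transcriptional repressor that IRF8 activates in germinal centre B cells, read 613.9 and 455.6 in L929IRF8 and 338.6 and 346.2 in L929 (0.60 ± 0.33), or 0.40 without L929IRF8 replicate 1. Id2, an inhibitor of helix-loop-helix factors that dendritic cells need, read 97.5 and 93.5 in L929IRF8 and 151 and 101.8 in L929 (-0.33 ± 0.27), which was -0.08 without L929 replicate 1. Cd74, the invariant chain of MHC class II, read 2650.6 and 952.9 in L929IRF8 and 1595.6 and 715.4 in L929 (0.57 ± 0.67). Its arrays overlapped, and replicate 1 had the higher value in each line. The log2 difference of Cd74 was 0.73 under replicate 1 and 0.41 under replicate 2, but -0.16 without L929IRF8 replicate 1. With no overlap 1 of the 10, Bcl6, was higher and 3 were lower in L929IRF8, beside 15.6% and 14% of all genes.

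Cell death genes did not share a direction. Of 25 apoptosis genes above the bound 0 passed, and the median was -0.07. With no overlap 5 were higher and 6 lower, beside 15.6% and 14% of all genes. Casp4, the inflammatory caspase that senses cytosolic lipopolysaccharide, read 870.8 and 832.1 in L929IRF8 and 544.5 and 592.7 in L929 (0.57 ± 0.15, 0.54 without L929IRF8 replicate 1). Casp1, the caspase of the inflammasome, read 3742.1 and 4149.1 in L929IRF8 and 2609.5 and 3141.1 in L929 (0.46 ± 0.15). Bid, which links death receptors to mitochondria, read 1889 and 2150 in L929IRF8 and 2735.8 and 2953.7 in L929 (-0.49 ± 0.15). In these 3 the lines were apart under both replicate numbers. Tnfrsf10b, a receptor for the death ligand TRAIL, read 410.6 and 178.1 in L929IRF8 and 150.6 and 165.1 in L929, and its log2 difference of 0.73 became 0.16 without L929IRF8 replicate 1.

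Cytokine genes were mixed. Of 36 chemokines and cytokines on the array 11 were above the bound, with a median of -0.12, although it was 0.03 under replicate 1 and 0.04 under replicate 2. Il15, which sustains natural killer and memory T cells, read 136.6 and 127 in L929IRF8 and 99.7 and 92.4 in L929, and its log2 difference was 0.40 under each replicate number. Ccl7, a monocyte chemokine, read 5082.2 and 5063.6 in L929IRF8 and 8336.2 and 5427.8 in L929. Its gap came from L929 replicate 1, since the log2 difference of -0.41 was -0.10 without that array.

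Matrix and adhesion genes differed gene by gene. The 14 collagens above the bound ran from Col3a1 at -0.80 to Col4a5 at 0.81. Their median was 0.07, but 0.18 under replicate 1 and -0.08 under replicate 2. The 23 matrix glycoproteins and proteoglycans had a median of -0.01. Vcan, a large proteoglycan, read 11.2 and 20.4 in L929IRF8, under the bound, and 29.6 and 39.8 in L929 (-0.68 ± 0.26), at least 1.45-fold lower. The fibronectin and vitronectin receptor subunits Itgb1 and Itgav were lower at -0.60 and -0.54, and at -0.34 and -0.35 without L929IRF8 replicate 1. Pdgfra, the receptor for platelet-derived growth factor and a fibroblast marker, read 235.3 and 213.5 in L929IRF8 and 334 and 341.4 in L929 (-0.56 ± 0.15). It lay between -0.62 and -0.49 with any 1 array left out. Igf1, a growth factor of mesenchymal cells, read 71.6 and 56.6 in L929IRF8 and 146.8 and 89.4 in L929 (-0.72 ± 0.34), which was -0.40 without L929 replicate 1. Acta2, the smooth muscle actin of contractile fibroblasts, was dim, with 39 and 32.1 in L929IRF8 and 16 and 22.2, under the bound, in L929 (0.56 ± 0.16), at least 1.49-fold higher.

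Growth and housekeeping lists lay close to the median of all genes. The median log2 difference was 0.03 for 37 DNA replication and mitosis genes, -0.01 for 39 cytosolic ribosomal proteins, -0.02 for 43 oxidative phosphorylation genes, -0.01 for 28 proteasome genes and 0.03 for 14 housekeeping genes. Single members lay further out. Mcm6, a subunit of the replicative helicase, read 1947.8 and 2038.2 in L929IRF8 and 3010.2 and 2364.6 in L929 (-0.42 ± 0.16), or -0.25 without L929 replicate 1. The mitochondrial chaperonin gene Hspe1 read 1816.3 and 2421.9 in L929IRF8 and 3742.1 and 3379.8 in L929 (-0.76 ± 0.26), and the respiratory subunit gene Cox6c read 6240.4 and 7773.4 in L929IRF8 and 10354.9 and 10248 in L929 (-0.56 ± 0.19). In both, L929IRF8 replicate 1 was the lowest array, and without it the log2 differences were -0.55 and -0.41. Ddit4, a stress-induced inhibitor of the growth kinase mTORC1, was the highest member of the glycolysis and hypoxia list, with 438.3 and 408.3 in L929IRF8 and 239.2 and 304.2 in L929 (0.62 ± 0.27). Hmox1, the oxidative stress enzyme haem oxygenase 1, read 32.1 and 141.4 in L929IRF8 and 132 and 238.1 in L929. Its arrays overlapped, and the log2 difference of -1.16 was -0.30 without L929IRF8 replicate 1.

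**Figure D3:**
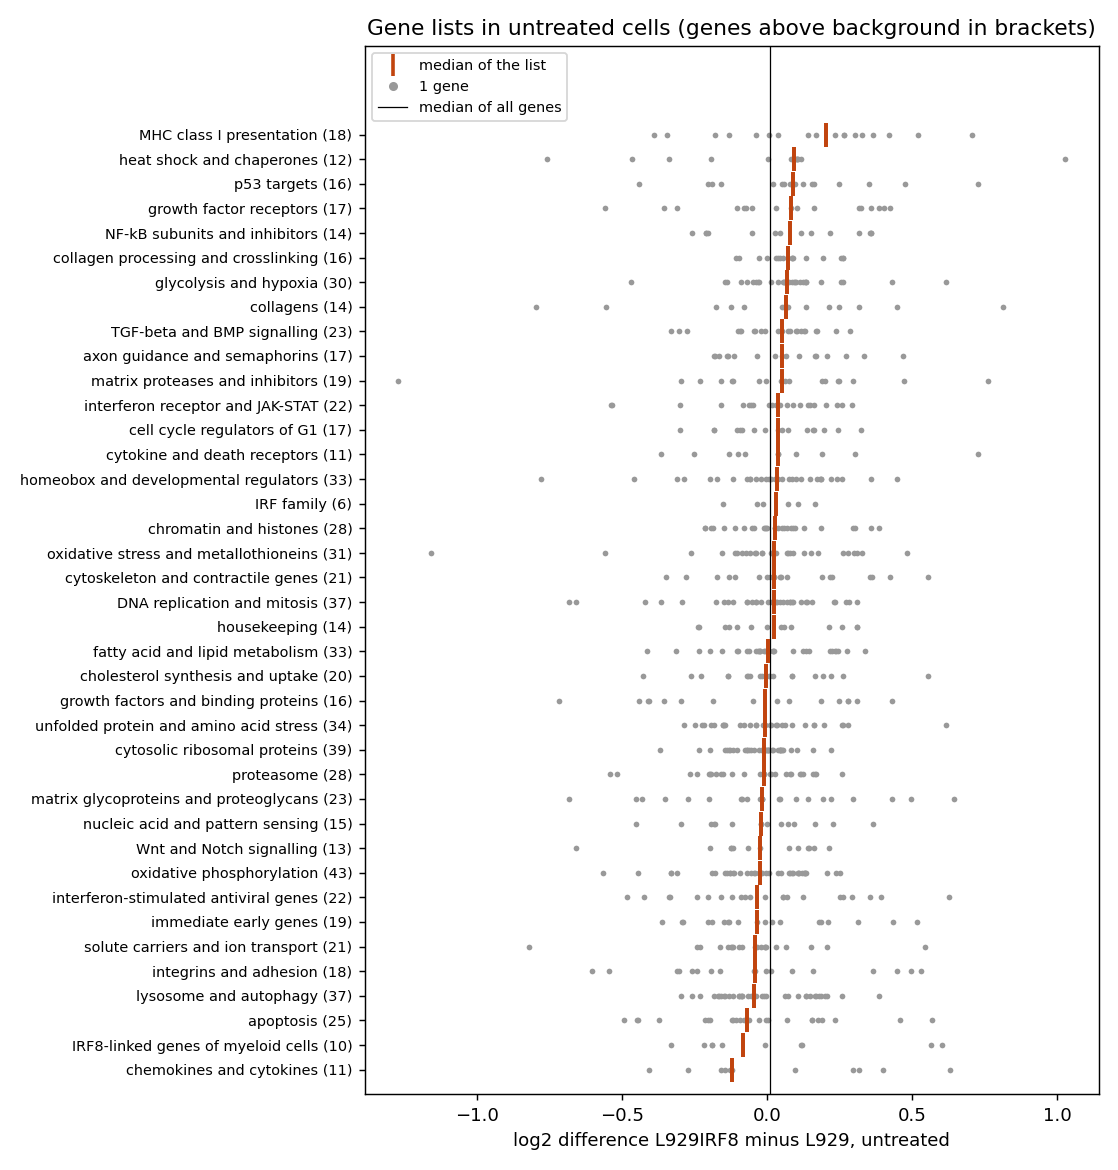
Log2 differences of L929IRF8 minus L929 in untreated cells for the genes of each list with at least 6 genes above the background bound (grey points) and the list's median (red bar), with lists ordered by median. The black line is the median of all 7647 genes, 0.01. Medians run from -0.12 (chemokines and cytokines) to 0.20 (MHC class I presentation), and single genes reach 1.03 and -1.27.

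The log2 differences after IFNβ come from other arrays than those in untreated cells, so they show whether a difference recurs. The limma errors and p-values of both comparisons use the spread over all 8 arrays and are not separate. Across the 7647 genes, the log2 difference between the lines in untreated cells correlated with that after IFNβ at a Pearson r of 0.210 (rho 0.192), and 57.7% of genes had the same sign. The points share the normalization and the cell lines and are not independent. Of the 15 higher genes 12 had the same sign after IFNβ, and 8 were higher with no overlap, where 11.9% of all genes were. Of the 15 lower genes 9 had the same sign and 4 were lower with no overlap, where 12.8% of all genes were. Their median log2 differences were 1.08 in untreated cells and 0.28 after IFNβ for the higher genes, and -0.90 and -0.03 for the lower genes. After IFNβ limma again called 0 of 11354 probes, with 316 at an unadjusted p below 0.05 (2.78%), and the test of whether the difference between the lines changed with IFNβ called 0, with 269 (2.37%).

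At least 1.5-fold differences with no overlap recurred after IFNβ for 7 of the 59 higher and 7 of the 67 lower genes, while 5 and 10 others were apart in the opposite direction by any amount. Among all 7647 genes 41 were higher and 53 lower by this measure after IFNβ. Regardless of size, 2260 of all 7647 genes (29.6%) were apart with no overlap in untreated cells, where a random order of the arrays gives a share of 0.333. Of these, 234 (3.06% of all genes) were apart in the opposite direction after IFNβ. Lpar4 read 255 and 285.8 in L929IRF8 and 85.1 and 101 in L929 after IFNβ, a log2 difference of 1.39 ± 0.18 with a limma adjusted p of 0.295, beside 1.10 in untreated cells. Cd28 read 469.7 and 793.7 in L929IRF8 and 201.4 and 301.5 in L929 after IFNβ (1.26 ± 0.36). For both, all 4 L929IRF8 arrays were above all 4 L929 arrays. Per3, Col4a5, the neuritin gene Nrn1, the nuclease gene Dnase1l2 and the claudin-like gene Cldn34c1 were the other 5 higher genes, several of them close to the bound. After IFNβ Per3 read 24.3 and 20.1 in L929IRF8 and 17.2 and 1.6 in L929. Dnase1l2 then read 21.5 and 26.8 in L929IRF8 and 9.1 and 9.1 in L929, so both genes were mostly under the bound. The untreated log2 difference of Nrn1 was 0.59, or 0.37 without L929 replicate 1, and that of Cldn34c1 0.67, or 0.37 without L929 replicate 2.

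The 7 genes lower in both were Adam19, Prl2c3, Prl2c4, Igf1, Gata6, Kcnk2 and Dab2, of which the 2 proliferins may be 1 signal. Kcnk2, a mechanosensitive potassium channel, read 257.5 and 192.6 in untreated L929IRF8 and 420 and 366.6 in untreated L929, and 181.4 and 138.7 in L929IRF8 and 303.4 and 299.3 in L929 after IFNβ. Dab2, an endocytic adaptor, read 1442 and 1743.1 in untreated L929IRF8 and 2361.6 and 2662.5 in untreated L929, and 2860.6 and 2996.5 in L929IRF8 and 4473.3 and 4894.7 in L929 after IFNβ. The log2 difference of Dab2 was -0.66 without and -0.67 with IFNβ, and that of Kcnk2 -0.77 and -0.86. Gata6, a transcription factor of mesoderm and endoderm, was at -0.78 and -0.88, with its untreated values near the bound, and at -0.44 in untreated cells without L929IRF8 replicate 1. Pdgfra was lower in both as well, at -0.56 and -1.02.

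**Figure D4:**
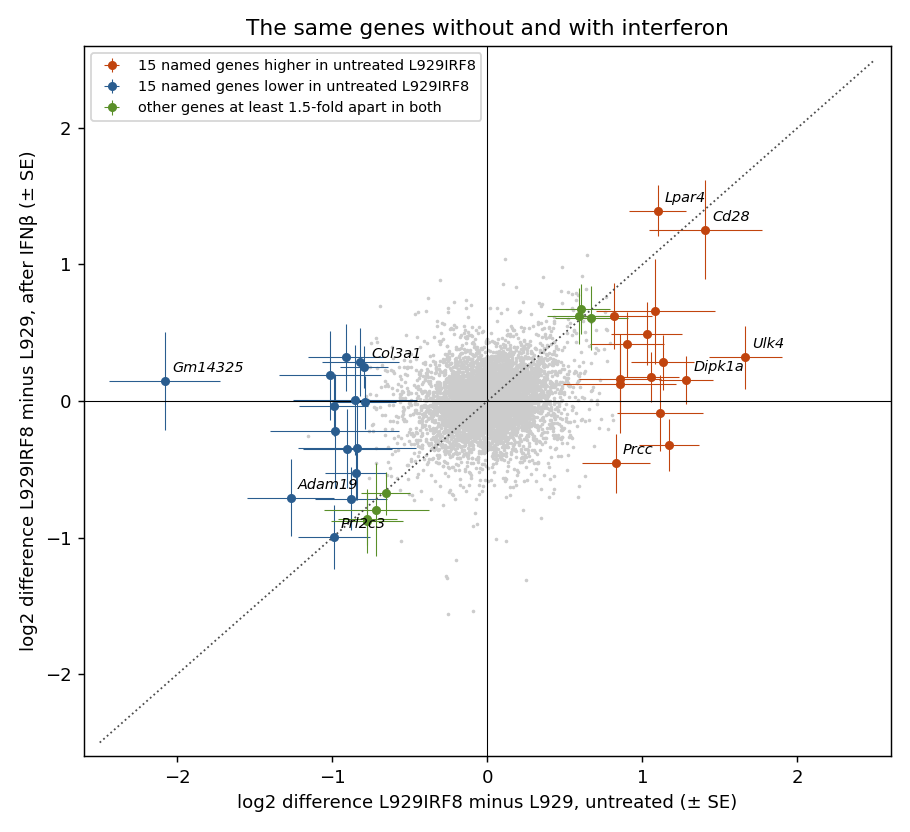
Log2 difference of L929IRF8 minus L929 in untreated cells (x axis) and after IFNβ (y axis), with limma standard errors as bars. Grey points are all genes, red and blue the named genes, and green the other genes at least 1.5-fold apart without overlap in both. Cd28, Lpar4 and Prl2c3 lie near the dotted line of equal differences, while Dipk1a and Gm14325 lie near 0 on the y axis. Adam19 (-1.27 untreated and -0.71 after IFNβ) and Ulk4 (1.66 and 0.32) lie between.

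For many named genes 1 untreated group stood apart from all 6 other arrays, IFNβ arrays included; these counts were chosen after the values were seen. The untreated L929 arrays were apart from the other 6 for 7 of the 15 higher and 6 of the 15 lower genes, where 10.2% of all genes were. The untreated L929IRF8 arrays were apart for 6 and 8, where 8.02% of all genes were. The lines were apart on all 8 arrays for 7 and 2, where 2.34% of all genes were. Because the genes were chosen on the untreated arrays, shares above these are not a result about them. Dipk1a is an example of the first kind, with 362 and 449.6 in L929IRF8 and 396 and 328.3 in L929 after IFNβ, all of them above both untreated L929 arrays. Col3a1 is one of the second, with 496 and 424.1 in L929IRF8 and 380.4 and 387 in L929 after IFNβ.

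Differences between the lines were also grouped by chromosome, a split chosen after the values were seen, on the 7642 genes with a chromosome in RefSeq. Genes of chromosome 1 were mostly lower in L929IRF8: 270 of 375 (72%) had a negative log2 difference, where 3641 of all 7647 genes did. The median was -0.10, which was -0.11 under replicate 1 and -0.08 under replicate 2. Genes of chromosomes 13 and 15 were mostly higher. On chromosome 13, 178 of 271 genes (65.7%) had a positive difference with a median of 0.07, and on chromosome 15, 225 of 332 (67.8%) with a median of 0.07. The other 17 chromosomes had medians from -0.02 to 0.05.

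The same 3 chromosomes kept their direction after IFNβ. Medians there were -0.07 on chromosome 1 (65.1% negative), 0.09 on chromosome 13 (72% positive) and 0.07 on chromosome 15 (66.3% positive), and the other 17 chromosomes had medians from -0.06 to 0.03. Chromosome 17 had 65.7% of its genes lower after IFNβ, a larger share than chromosome 1, with a median of -0.06, whereas its untreated median was -0.00 (0.06 under replicate 1 and -0.06 under replicate 2). The untreated medians kept their sign with any 1 array left out, from -0.11 to -0.08 on chromosome 1, 0.03 to 0.09 on chromosome 13 and 0.04 to 0.09 on chromosome 15. When the genes of a chromosome were put in order of position and split into 8 parts, 7 of 8 parts were negative on chromosome 1, and 7 of 8 positive on each of chromosomes 13 and 15. Of the named genes Col3a1, Ifi202b, Gulp1 and Cacybp lie on chromosome 1, as do Cd28 and Tmem131, which were higher.

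**Figure D5:**
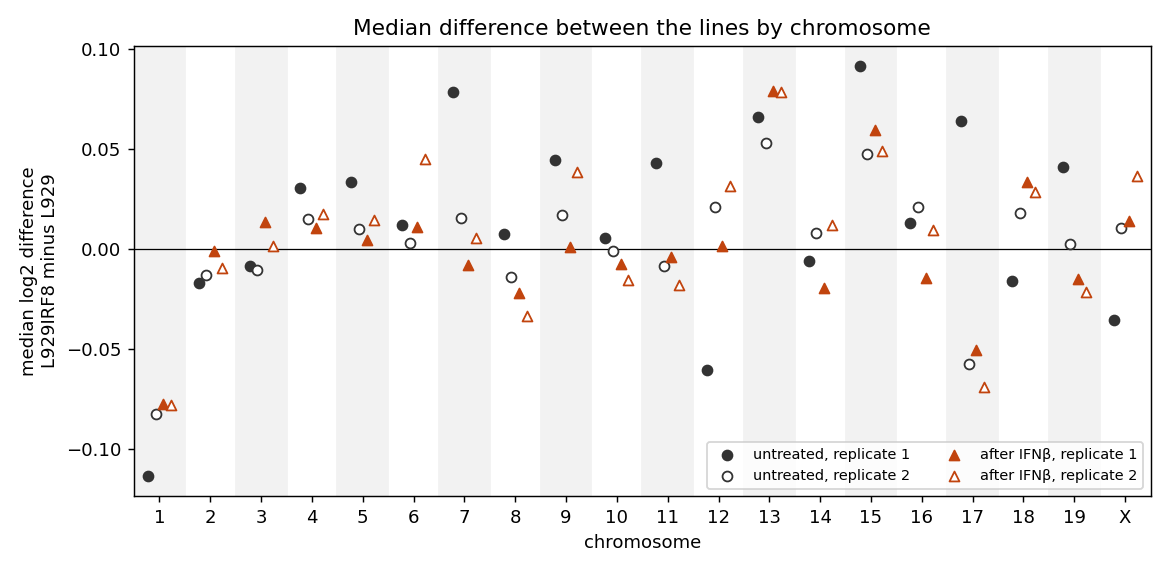
Median log2 difference of L929IRF8 minus L929 over the genes of each chromosome, under replicate 1 (filled) and replicate 2 (open), in untreated cells (circles) and after IFNβ (triangles). On chromosome 1 all 4 medians lie below -0.07, and on chromosomes 13 and 15 all 4 lie above 0.04.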

How the data were processed

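The deposited file holds a linear intensity per probe for each of 8 arrays. How the authors made the intensities is not given in the sources used here. Background subtraction shows in the 28.1% to 28.3% of readings below 0 on each array, and quantile normalization in sorted arrays that match within 1.7 units. The deposited scale was kept. That normalization hides a change shared by most genes. No detection p-values or slide numbers were used.

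Gene symbols come from GEO's platform annotation (23978 probes with 1 symbol, 0 with several, 1719 with none), and 0 symbols were updated through RefSeq. A gene is represented by its probe with the highest mean over the 4 untreated arrays. Negative deposited intensities were set to 0, 16 was added, and log2 taken. limma 3.58.1 in R 4.3.3 (lmFit and eBayes, 4 residual and 3.67 prior degrees of freedom) fitted 4 group means to all 8 arrays, without a replicate block, and p-values were adjusted by Benjamini-Hochberg over 11354 probes at a threshold of 0.05. The script was tested on simulated data. Errors of log2 differences are standard errors. The number of arrays limits the precision.

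At the filter's edge, Tnfrsf1b was just inside with a mean of 23.725 and Sugt1 just outside with 23.7. Both arrays of a line were at or under the bound for 58 used probes in L929IRF8 and 78 in L929; such folds are given as "at least", against the bound. The rule for named genes took up to 15 genes a direction, passing or filled by size, the largest members of each list, Irf8 and the markers. The 46 lists (1249 of 1402 entries on the array), the rule and the alternatives were chosen with earlier results of these data known.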

Additional observations from a re-analysis of the deposited data

Results flagged for a closer look

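For 7 of the 94 genes checked singly, both L929IRF8 arrays were apart from both L929 arrays in untreated cells and again after IFNβ. The directions were opposite. Over all 7647 genes 2260 were apart in untreated cells, and 234 of these (3.06% of all genes) were apart the opposite way after IFNβ. Many of the 94 were chosen for arrays apart in untreated cells, so a share above 3.06% is no result about them. The change of the difference with IFNβ was tested in limma and passed for none of the 7. Values are the log2 difference between the lines after IFNβ minus that in untreated cells. In 3 genes L929IRF8 was lower when untreated and higher after IFNβ: the type III collagen gene Col3a1 (1.04), the zinc importer gene Slc39a1 (1.11) and the forkhead factor gene Foxc2 (0.76). In 4 genes L929IRF8 was higher when untreated and lower after IFNβ: Prcc (-1.29), the immunoproteasome subunit gene Psmb10 (-1.09), the cytokine gene Il15 (-0.88) and Irf9 (-0.30). Psmb10 read 2472.6 and 2044.6 in L929IRF8 and 4102.5 and 3136.4 in L929 after IFNβ. Il15 read 936.6 and 1144.5 in L929IRF8 and 1400.5 and 1502.2 in L929 after IFNβ.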

How the results depend on the processing

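The count of 0 called probes held under the alternatives tried, apart from fitting all 25697 probes without a filter on dim ones, which called 4: Lrrc75b (log2 difference -0.82, limma adjusted p = 0.0345), Htr5a (-0.47), Ccdc142 (0.77) and an unnamed probe (-0.44), each under the bound on all 4 untreated arrays. The number of probes with an unadjusted p below 0.05 was 424 in the reported fit, 199 without L929 replicate 1, 262 without L929IRF8 replicate 1, 338 without L929 replicate 2 and 996 without L929IRF8 replicate 2, and the smallest adjusted p was 0.205 or more in every fit with a filter. With the replicate number as a block there were 988, or 789 on the 4 untreated arrays alone, where 567.7 are expected of tests with no difference, and still 0 were called. The labels do not say what a replicate number marks, and a group has only 2 numbers; same-numbered deviations correlated at 0.441 to 0.511 in all 6 pairs of groups. The agreement of the replicate numbers, an r of 0.165, was 0.151 with an offset of 4, 0.192 with an offset of 64, 0.157 with values raised to the bound, 0.0942 without the filter and 0.228 above 4 times the bound. Of 1860 recomputed log2 differences of 94 genes 9 changed sign, in 5 genes, none of which had passed. Leaving out 1 array gave ranges of -0.40 to 0.10 for Irf1, -0.0687 to 0.0464 for Irf2, -0.307 to 0.0463 for B2m, -0.62 to 1.89 for Cxcl1 and -0.16 to 1.30 for Cd74. Under replicates 1 and 2 Cxcl1 was at 0.62 and 0.64, and Cd74 at 0.73 and 0.41. List medians moved by more than their replicate spread in 121 of 879 recomputations. As alternatives chosen after seeing the data, the 126 genes at least 1.5-fold apart without overlap became 192 to 590 with 1 untreated array left out, where fewer arrays have to be apart.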

Other observations

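Some genes outside the groups described above had small differences that held on every untreated array, though none passed. Hoxa7, a homeobox gene of body patterning, read 1439.4 and 1454.7 in L929IRF8 and 951.8 and 1171.9 in L929, a log2 difference of 0.45 ± 0.17 (limma SE). Foxc2, a forkhead factor of mesenchyme, read 191.1 and 177.7 in L929IRF8 and 277 and 242.5 in L929 (-0.46 ± 0.15). Tgfbr1, the type I receptor for TGF-beta, read 1306.5 and 1176.1 in L929IRF8 and 1058.4 and 970.6 in L929 (0.29 ± 0.15), and was also higher after IFNβ (0.17). Rps24, a ribosomal protein gene, read 22085.5 and 23002.2 in L929IRF8 and 28297.7 and 29887.7 in L929 (-0.37 ± 0.13), while its list of 39 had a median of -0.01. For each of these 4 genes the untreated arrays of the lines were apart, as they were for 29.6% of all genes in one direction or the other. After IFNβ Hoxa7 was at 0.13 and Rps24 at -0.04, both with overlapping arrays. Foxc2 was then higher in L929IRF8, at 0.31. Ccnd2, a cyclin of G1, was lower in L929IRF8 both untreated (-0.30) and after IFNβ (-0.29).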
